A study of Mus musculus with 8 samples.

Results

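Insulin and insulin-like growth factor signals reach the cell nucleus through a short relay, and 8 genes of it and the 2 adiponectin receptors were followed in group 2 innate lymphoid cells (ILC2s) of fat. The genes were taken by symbol from a table of 39527 genes: the receptors Insr and Igf1r, the adaptor Irs2, the PI3-kinase subunit Pik3r1, the kinases Akt1 and Akt2, the transcription factors Foxo1 and Foxo3, and the receptors Adipor1 and Adipor2. All 10 were found once each. The cells came from epididymal (visceral) fat of wild-type male C57BL/6 mice aged 14 weeks. Of the 8 libraries, 4 (N1 to N4) came from mice on a normal diet and 4 (H1 to H4) from mice that had eaten a high-fat diet for 8 weeks from 6 weeks of age. The labels do not say whether a library is 1 animal or a pool, so the spread behind every p-value is that among libraries and may be technical.

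Ligand-bound insulin and IGF-1 receptors phosphorylate adaptors of the IRS family, which recruit PI3-kinase, whose lipid product brings AKT to the membrane. AKT then phosphorylates FOXO factors and keeps them out of the nucleus, and in lymphocytes nuclear FOXO factors drive genes of homing, quiescence and survival. Adiponectin, a hormone of adipocytes, acts through its own receptors, which are linked to AMPK and to the breakdown of ceramide. Adipose ILC2s live among adipocytes, and a high-fat diet changes the hormone milieu of that tissue.

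The regulatory sequences of the pair of genes whose transcripts fell are shown first. Both are the 250 bases before the RefSeq start (GRCm38.p6, the assembly of mm10), printed 5′ to 3′ along the gene. Capitals mark an E-box (CACGTG) and an insulin response element (TGTTTTG), a sequence known to be bound by FOXO factors in insulin-regulated promoters.
Irs2, chr8:11008930-11009179, minus strand: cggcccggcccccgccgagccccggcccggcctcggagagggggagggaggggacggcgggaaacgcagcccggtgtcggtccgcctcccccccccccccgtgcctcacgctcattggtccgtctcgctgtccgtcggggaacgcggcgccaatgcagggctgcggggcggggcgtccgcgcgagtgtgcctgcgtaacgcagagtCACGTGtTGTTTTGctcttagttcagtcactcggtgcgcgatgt
Foxo1, chr3:52268087-52268336, plus strand: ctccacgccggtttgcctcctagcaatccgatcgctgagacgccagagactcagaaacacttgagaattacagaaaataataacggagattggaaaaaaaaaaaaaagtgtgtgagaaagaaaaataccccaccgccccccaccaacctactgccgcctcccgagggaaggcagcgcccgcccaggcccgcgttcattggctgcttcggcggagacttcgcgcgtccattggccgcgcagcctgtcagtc
Both strands were searched for these motifs and for the FOXO site TGTTTAC. In the Irs2 window the E-box lies at positions -44 to -39 and the insulin response element at -37 to -31 from the start, 1 base apart. This RefSeq start lies upstream of the start of Irs2 in GENCODE (11008458), so the positions hold for the RefSeq start only. Of 32851 RefSeq windows of this length, 6.02% hold the E-box, 5.56% hold the insulin response element and 0.295% hold both. The FOXO site, present in 3.17% of windows, occurs at -172 to -166 before a start of Adipor2 and at -161 to -155 before a start of Akt1. That Adipor2 window (119388735 to 119388984, minus strand) lies inside the GENCODE gene, whose 5′ end is at 119417704. The Foxo1 window holds none of the 3 motifs. These are matches of letters, and binding was not measured.

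On the high-fat diet Foxo1 and Irs2 transcripts fell, and the other 8 genes did not pass the test. Foxo1, the FOXO factor best known from T cell homing and naive T cell maintenance, fell to 0.541 of its normal-diet mean, and Irs2, the adaptor that couples the receptors to PI3-kinase, to 0.622. In those 2 genes alone the diets did not overlap. The fall of Foxo1 was not shared by its paralogue Foxo3, which stood higher on the high-fat diet by a difference that did not pass. Values are as deposited under the name FPKM, by definition fragments scaled to gene length and library total. The deposited scaling departed from that definition. Relative to scaling by totals of reads recovered from these values, libraries ran from 0.849 (H2) to 1.17 (N2). Differences were tested with limma after adding 1 FPKM and taking log2, and p-values were adjusted by Benjamini-Hochberg over 11483 genes. Genes with an adjusted p under 0.05 were called. Over all tested genes, 2.86% were called (0.975% higher and 1.88% lower) and 11.1% had no overlap between the diets. Of the 10 genes, all tested, 2 were called lower and 0 higher, and at an unadjusted p under 0.05 there were 3. The 10 genes were chosen with earlier results of these data known, so these counts cannot be read as an excess over the shares of all genes. The median log2 difference of the 10 was -0.27, beside -0.02 over all tested genes and -0.27 over 12 ILC2 markers. In bulk RNA of sorted cells, fewer cells that carry a transcript and less transcript per cell cannot be told apart.

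**Figure D1:**
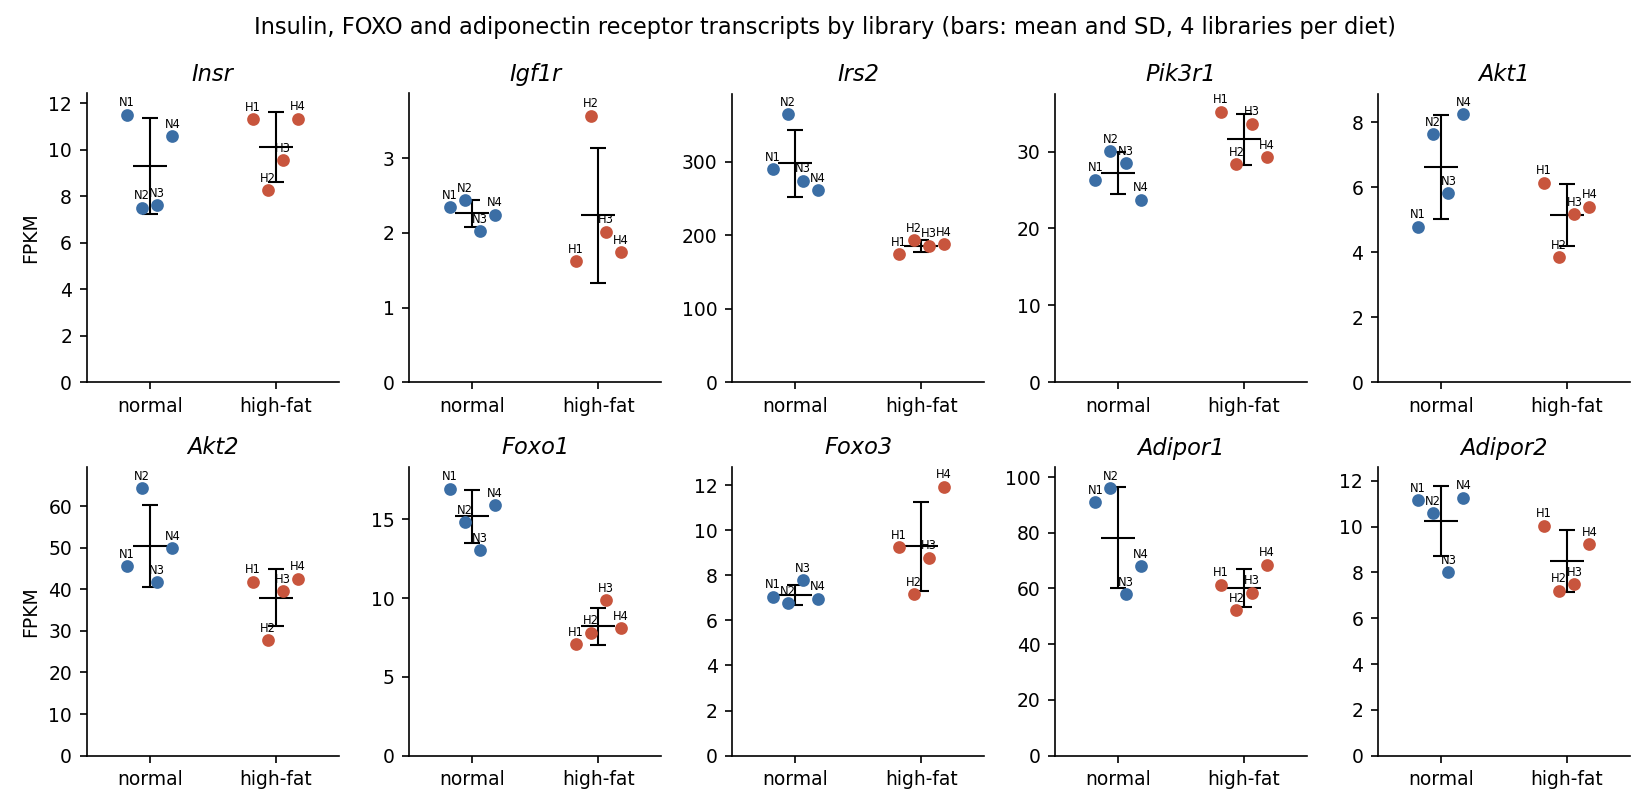
FPKM of the 10 genes (vertical axes, linear, from 0) in each library of the normal diet (blue) and the high-fat diet (red), with the mean and SD of 4 libraries. For Foxo1 and Irs2 all 4 high-fat libraries lie below all 4 normal-diet libraries, and the other panels overlap.

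Foxo1 (ENSMUSG00000044167, chromosome 3, 52268336 to 52353221 in mm10, plus strand) was at 17.0, 14.8, 13.0 and 15.9 FPKM in N1 to N4. In H1 to H4 it was at 7.07, 7.80, 9.87 and 8.09 FPKM. Every high-fat library was below every normal-diet library, and the high-fat values lay close together. The means were 15.2 ± 1.67 and 8.21 ± 1.19 FPKM (SD, n = 4 each). Foxo1 differed by -0.82 on the log2 scale, with a standard error of 0.15 and a 95% interval of -1.14 to -0.49 (limma, adjusted p = 0.0104). Reads recovered from the values numbered 389 to 461 per library on the normal diet and 176 to 296 on the high-fat diet. The call held in 19 of 19 other settings, between -0.90 and -0.67, with adjusted p up to 0.0470.

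An antisense gene, Gm20402, lies over 7.8% of the exon bases of Foxo1. The library kit, a transposase kit, does not mark strand, so reads of the pair cannot be told apart there. For Irs2 the antisense gene 9530052E02Rik covers 2.6% of exon bases and had 1 to 7 reads per library, and the other 8 genes share no exon base with another gene.

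Irs2 (ENSMUSG00000038894, chromosome 8, 10984681 to 11008458, minus strand) was the most abundant of the 10 transcripts. It was at 290, 365, 275 and 262 FPKM in N1 to N4, and at 175, 193, 186 and 188 FPKM in H1 to H4. The high-fat libraries were nearly alike, while N2 stood above the other normal-diet libraries. The means were 298 ± 46.2 and 185 ± 7.87 FPKM (SD, n = 4 each), with a log2 difference of -0.67, a standard error of 0.14 and a 95% interval of -0.98 to -0.36 (limma, adjusted p = 0.0208). The direction was the same in all 19 other settings, between -0.73 and -0.47. The call ended in 8 of them, which were those without H1, H3, H4, N1 or N2, quantile normalization, no filter on low values and a block on the library number (adjusted p 0.0501 to 0.0744). Without both H2 and N2, whose deposited scaling departed most from their recovered read totals, Irs2 differed by -0.59 (adjusted p = 0.0270) and Foxo1 by -0.81 (adjusted p = 0.0232).

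Pik3r1 encodes the p85 alpha regulatory subunit that docks PI3-kinase on IRS proteins (chromosome 13, 101680563 to 101768217). It was at 26.3, 30.1, 28.5 and 23.8 FPKM in N1 to N4 and at 35.2, 28.4, 33.6 and 29.2 FPKM in H1 to H4. H1 and H3 were above all normal-diet libraries, while H2 and H4 lay within their range. Pik3r1 differed by 0.21 on the log2 scale (95% interval -0.10 to 0.52, limma adjusted p = 0.476).

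Neither receptor tyrosine kinase passed. Insr (chromosome 8, 3122061 to 3279617), the insulin receptor, ranged from 7.51 to 11.5 FPKM in normal-diet libraries and from 8.26 to 11.3 FPKM in high-fat ones. Its log2 difference was 0.12 with a 95% interval of -0.25 to 0.49 (limma, adjusted p = 0.779). Igf1r (chromosome 7, 67952827 to 68233668), the IGF-1 receptor, was the least abundant of the 10, at 2.02 to 2.44 FPKM on the normal diet. On the high-fat diet it stood at 3.57 FPKM in H2 and at 1.62 to 2.02 FPKM in H1, H3 and H4. The library H2 therefore lay above the normal-diet range and H1 and H4 below it, while H3 (2.017 FPKM) was at its lower edge (2.023 FPKM in N3). The log2 difference was -0.05 (95% interval -0.50 to 0.41, limma adjusted p = 0.942), and without H2 it was -0.22.

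The AKT kinases carry the signal from PI3-kinase to FOXO factors. Akt2, the isoform most tied to insulin action on glucose uptake (chromosome 7, 27591552 to 27640826), was at 45.5, 64.3, 41.7 and 49.9 FPKM in N1 to N4. In H1 to H4 it was at 41.9, 27.8, 39.5 and 42.5 FPKM. The ranges overlapped only where H1 and H4 exceeded N3, and H2 was the lowest library. Akt2 was the third gene at an unadjusted p under 0.05, but its log2 difference of -0.40 (95% interval -0.78 to -0.02) did not pass after adjustment (limma, adjusted p = 0.247), and without both H2 and N2 it was -0.14. Akt1 (chromosome 12, 112653821 to 112674884), the more broadly expressed isoform in most tissues, ranged from 4.78 to 8.24 FPKM in normal-diet libraries and from 3.86 to 6.14 FPKM in high-fat ones (-0.30, 95% interval -0.70 to 0.10, limma adjusted p = 0.436). It rested on 98 to 273 reads per library.

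Foxo3 (chromosome 10, 42181841 to 42276755), a FOXO factor of quiescence and stress resistance, was at 7.05, 6.77, 7.78 and 6.96 FPKM in N1 to N4. In H1 to H4 it was at 9.24, 7.17, 8.77 and 11.9 FPKM. H1, H3 and H4 were above every normal-diet library and H2 lay within their range. Foxo3 differed by 0.32 on the log2 scale, with a 95% interval of -0.03 to 0.67 (limma, adjusted p = 0.323).

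The adiponectin receptors had lower means on the high-fat diet without passing. Adipor1 (chromosome 1, 134415378 to 134433351), the receptor linked to AMPK, was at 91.0, 96.0, 58.1 and 68.1 FPKM in N1 to N4 and at 61.3, 52.2, 58.6 and 68.5 FPKM in H1 to H4. N1 and N2 stood above all other libraries, while N3 and N4 lay within the high-fat range. The log2 difference was -0.35 with a 95% interval of -0.72 to 0.02 (limma, adjusted p = 0.305). Adipor2 (chromosome 6, 119353150 to 119417704), linked to PPAR alpha in liver, ranged from 8.02 to 11.3 FPKM in normal-diet libraries and from 7.20 to 10.04 FPKM in high-fat ones. Its log2 difference was -0.25 (95% interval -0.59 to 0.10, limma adjusted p = 0.465).

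**Figure D2:**
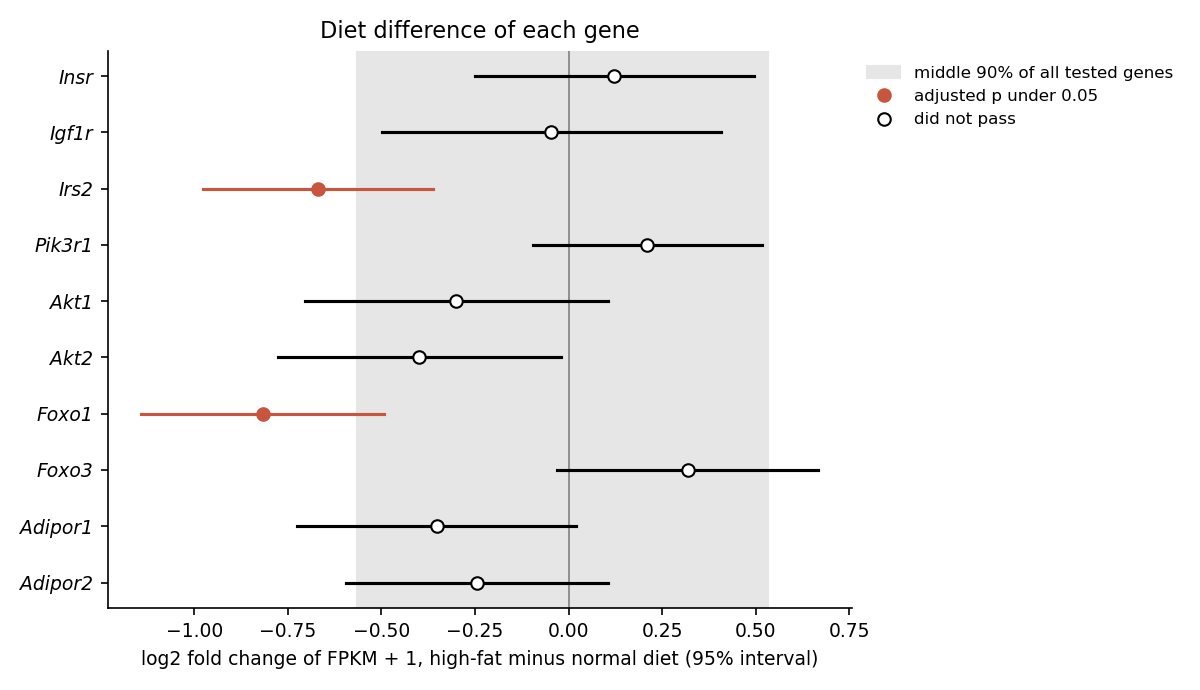
Log2 fold change of FPKM + 1, high-fat minus normal diet (horizontal axis), of each gene with its 95% interval, over the middle 90% of all 11483 tested genes (grey, -0.56 to 0.53). Foxo1 and Irs2 (red) lie below the grey band and passed, and the other 8 points lie inside it.

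One further scaling moved these differences together. When whole reads were recovered from the deposited values and scaled to each library's total, the median log2 difference of all tested genes rose by 0.15, and 74.2% of the calls were higher instead of 34.1%. On that scale Foxo1 (-0.67, limma-voom adjusted p = 0.0107) and Irs2 (-0.47, 0.00505) were again called lower, and Pik3r1 (0.41, 0.00969) and Foxo3 (0.47, 0.0253) were called higher. Those 4 differences include the shift of 0.15. Insr stood at 0.39 (adjusted p = 0.0686) and Adipor2 at -0.02 on the same scale. The gene length behind recovered reads was the smallest whole number that made all 8 libraries whole, so a gene's reads may be off by a common factor. For Pik3r1 and Adipor1 every recovered count was even, and the recovered length of Adipor1 (5465 bases) exceeded its annotated exons (5025 bases). How far this bears on the calls was not tested.

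**Figure D3:**
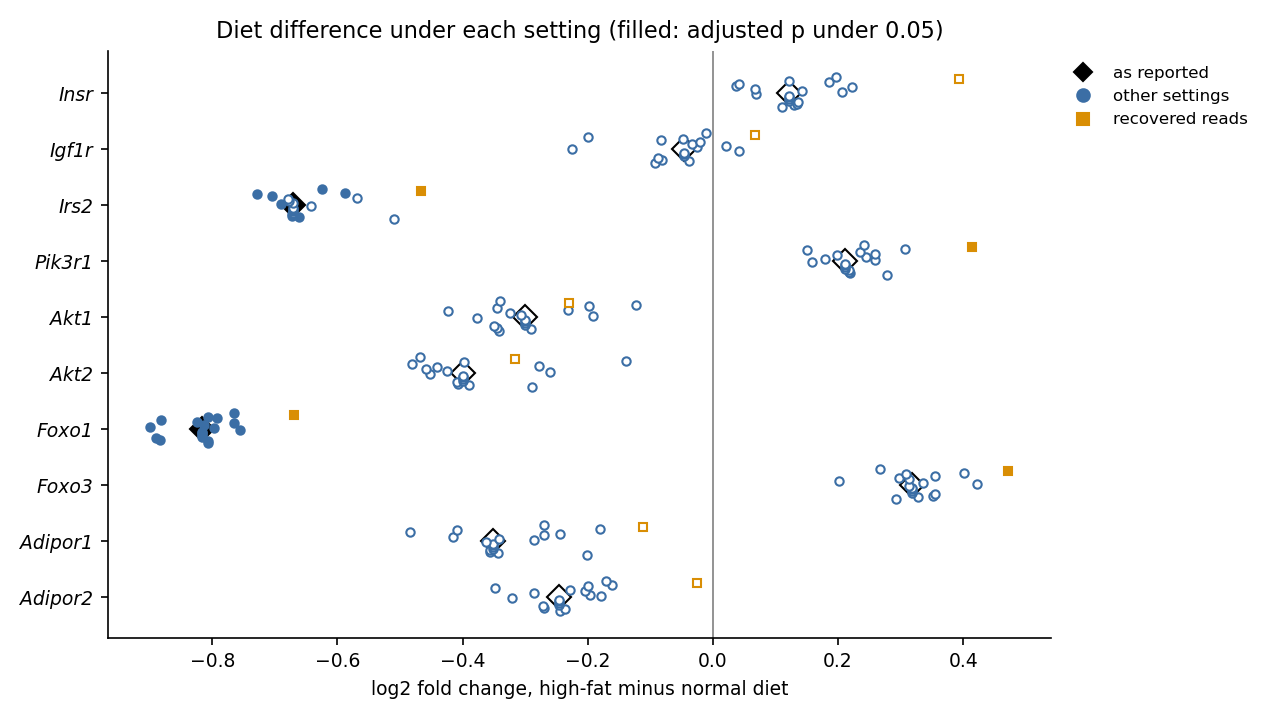
Log2 fold change, high-fat minus normal diet (horizontal axis), of the 10 genes as reported (diamonds), in other settings (circles) and on recovered reads (squares), filled where the adjusted p was under 0.05. Foxo1 is filled throughout from -0.90 to -0.67, Irs2 is filled in 11 of 19 other settings, and the squares of all 10 genes lie to the right of their diamonds.

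A ratio of related genes within a library does not depend on a scaling shared by all genes of that library, apart from the added 1 FPKM. A technical factor in the deposited values differs between genes and does not cancel. It shifts the log2 difference between the diets by -0.058 for Foxo1 and by 0.056 for Foxo3. The log2 ratio of Foxo1 to Foxo3 was 1.16, 1.03, 0.68 and 1.09 in N1 to N4. In H1 to H4 it was -0.34, 0.11, 0.15 and -0.51. All 4 high-fat libraries lay below all 4 normal-diet libraries. Where the ratio stands against 0 depends on the length used, since per base of all annotated exons the high-fat means were 2.32 for Foxo1 and 3.55 for Foxo3. The means were 0.99 ± 0.21 and -0.15 ± 0.33 (SD, n = 4 each), a difference of -1.13. The exact two-sided permutation test over 70 splits gave p = 0.0286, the smallest it can give, and 0.114 after adjustment over the 4 ratios examined. With the technical factor divided out the difference was -1.03.

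The other 3 pairs overlapped between the diets. The ratio of Akt1 to Akt2 differed by 0.10 (exact permutation p = 0.486), that of Adipor1 to Adipor2 by -0.11 (0.486) and that of Insr to Igf1r by 0.17 (0.629). Adjusted over the 4 ratios each of these was at 0.629. Akt2 exceeded Akt1 and Adipor1 exceeded Adipor2 in every library, at log2 ratios of Akt1 to Akt2 from -3.01 to -2.46 and of Adipor1 to Adipor2 from 2.49 to 3.07. The Insr to Igf1r ratio was most spread among high-fat libraries, from 1.02 in H2 to 2.23 in H1.

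**Figure D4:**
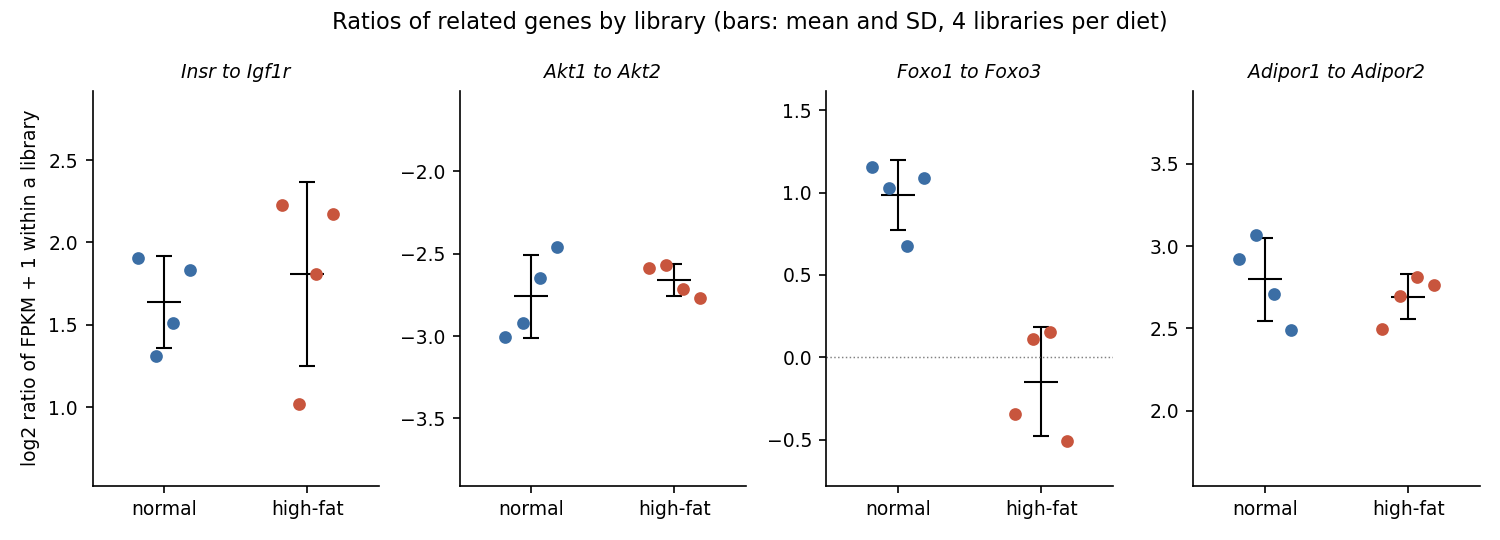
Log2 ratio of FPKM + 1 within each library (vertical axes, each spanning the same width) for 4 pairs of related genes on the normal (blue) and high-fat (red) diet, with mean and SD of 4 libraries. Only for Foxo1 to Foxo3 do the diets separate, with normal-diet libraries at 0.68 to 1.16 and high-fat libraries at -0.51 to 0.15.

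Among levels per length on the normal diet, Irs2 was highest at 298 FPKM, followed by Adipor1 (78.3), Akt2 (50.3), Pik3r1 (27.2), Foxo1 (15.2), Adipor2 (10.3), Insr (9.30), Foxo3 (7.14), Akt1 (6.62) and Igf1r (2.26). Neighbours whose library ranges overlapped were Adipor1 with Akt2, Adipor2 with Insr, Insr with Foxo3 and Foxo3 with Akt1. On the high-fat diet the mean of Foxo1, at 8.21 FPKM, came below those of Insr (10.1), Foxo3 (9.28) and Adipor2 (8.49). The high-fat range of Foxo1 (7.07 to 9.87 FPKM) overlapped the range of each of them. The length in the deposited FPKM, recovered from the values, was 2453 bases for Foxo1, while all its annotated exons span 8665 bases, and for Insr 4408 of 13746 bases. Per base of all annotated exons, Foxo1 came to 4.30 on the normal diet, after Adipor2 (6.81) and Akt1 (4.36) and before Insr (2.98) and Foxo3 (2.73). The order of the middle genes therefore depends on the length used, while Irs2 and Adipor1 came first and Igf1r last by both.

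The wider pathway was described by lists of genes with known roles, chosen with earlier results of these data known. Over all 11483 tested genes 2.86% were called, and over these pathway lists together 4 genes were, 2 higher and 2 lower. Whether the lists held more calls than that share was not tested. Of 20 tested genes of insulin and IGF receptor signalling 1 fell and 0 rose, with a median log2 difference of -0.01. Gab2, a docking protein that recruits PI3-kinase, was at 22.1, 23.9, 19.8 and 17.8 FPKM in N1 to N4 and at 12.9, 8.33, 8.87 and 10.6 FPKM in H1 to H4. The diets did not overlap, and Gab2 fell by 0.98 on the log2 scale, standard error 0.16 (limma, adjusted p = 0.00650), a call that held in 19 of 19 other settings. None of 19 tested PI3-kinase subunits and phosphoinositide phosphatases passed, 10 of them below 0. Its most abundant members were Inpp4b and Inpp5d (SHIP1), phosphatases of PI3-kinase products, at -0.05 and -0.14, and both lay above 0 on recovered reads (0.060 and 0.11) and under quantile normalization (0.11 and 0.0063).

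None of 21 tested regulators and substrates of AKT passed, with a median of -0.01. Hsp90ab1, a chaperone of AKT, had a mean of 670 ± 49.0 FPKM in the normal-diet and 559.6 ± 47.0 FPKM in the high-fat libraries (SD, n = 4 each, log2 difference -0.26). Carhsp1, an RNA-binding AKT substrate, differed by -0.55 and was called lower on recovered reads (limma-voom adjusted p = 0.00872) and with a technical factor divided out (0.0202), and in no other setting. None of 20 tested FOXO partners passed, with a median of -0.08. Ywhaz, a 14-3-3 protein that holds phosphorylated FOXO in the cytoplasm, differed by -0.11, and by 0.14 on recovered reads and 0.11 under quantile normalization. Stk4 (MST1), a kinase that activates FOXO factors, differed by -0.24.

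Of 34 tested genes known as FOXO targets 1 rose and 1 fell, 15 were below 0 and the median was 0.08. Tcf7, a transcription factor found in early lymphoid and memory cells, was at 11.5, 13.2, 12.2 and 8.79 FPKM in N1 to N4 and at 22.7, 23.5, 26.4 and 33.1 FPKM in H1 to H4. It rose by 1.14 on the log2 scale (limma, adjusted p = 0.00296). Bbc3, which encodes the pro-apoptotic protein PUMA, was at 5.96, 5.60, 7.06 and 3.46 FPKM in N1 to N4 and at 2.37, 2.24, 1.89 and 1.85 FPKM in H1 to H4. It fell by 1.05 (limma, adjusted p = 0.0112). Both were without overlap between the diets, in opposite directions, and both calls held in every other setting in which the gene was tested (19 and 18).

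Of 19 tested genes of the adiponectin receptor pathway 1 rose and 0 fell. Cdh13 (T-cadherin), an adiponectin-binding protein of endothelial cells, was at 0.58, 0.069, 0.51 and 0.28 FPKM in N1 to N4 and at 1.42, 1.89, 1.41 and 1.93 FPKM in H1 to H4. It passed the filter on low values only through the high-fat libraries. The log2 difference was 0.98 (limma, adjusted p = 0.0391), and the call ended in 12 of 18 other settings, among them each library left out in turn except H2 (adjusted p up to 0.119).

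**Figure D5:**
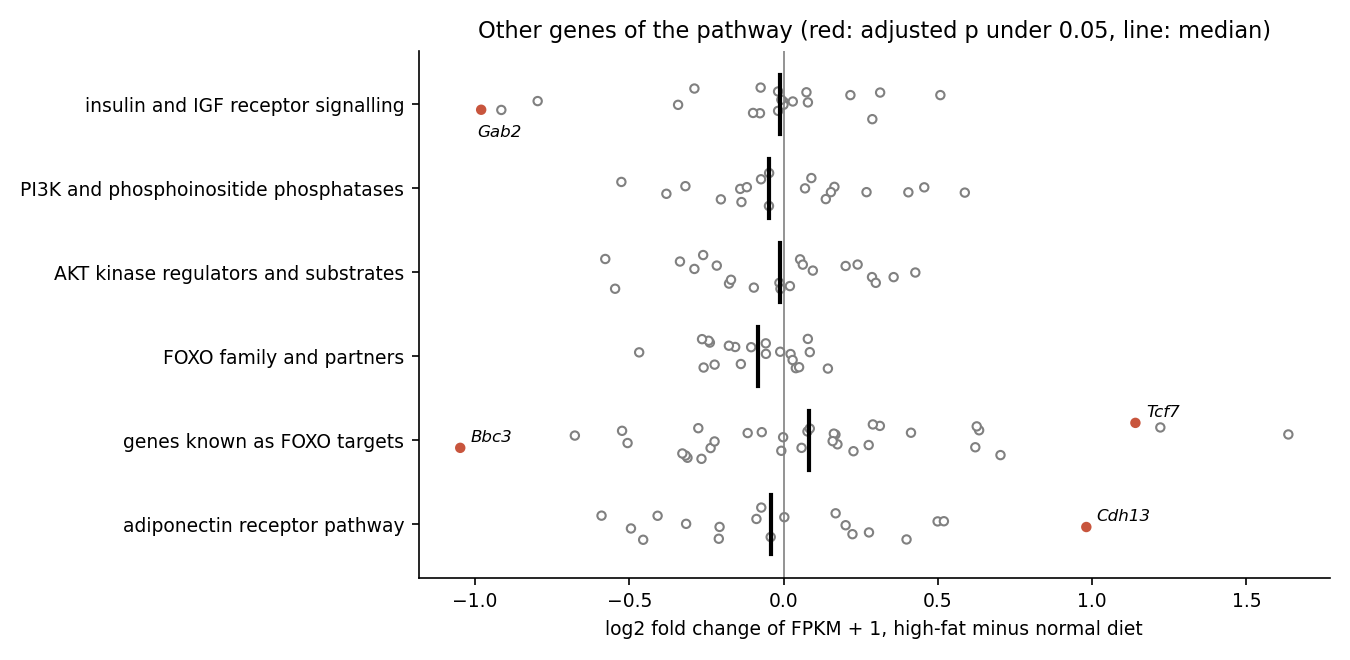
Log2 fold change of FPKM + 1, high-fat minus normal diet (horizontal axis), of each tested gene in 6 lists of the wider pathway, with the called genes in red and the list median as a line. Gab2 and Bbc3 lie lowest of the red points at -0.98 and -1.05, Tcf7 and Cdh13 highest at 1.14 and 0.98, and every median lies between -0.08 and 0.08.

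Transcripts of other cells that the sort could hold moved with diet in part. Summed over the list, T cell markers came to 781 to 1050 FPKM in normal-diet libraries and 833 to 1615 FPKM in high-fat ones. The largest parts of the sum were Trbc1, Trbc2, Cd3g and Trac, at normal-diet means of 392, 255, 112 and 98.5 FPKM. Cd3e and Cd4 had normal-diet means of 5.14 and 6.26 FPKM, so the sum is not a measure of T cell content. None of the 9 tested T cell markers passed, but all 9 had log2 differences above 0, with a median of 0.73. Among normal-diet libraries N4 stood apart, with Cd3e at 11.6 and Cd4 at 15.9 FPKM against at most 3.62 and 3.58 FPKM in N1 to N3. Endothelial markers came to 17.0 to 23.0 and 31.5 to 152 FPKM in sum. Fabp4 was the largest part in H1, H3 and H4, at 104, 62.5 and 68.9 FPKM, and stood at 9.68 FPKM in H2. Of 4 tested, Fabp4 and Esam were called higher, and the median log2 difference was 1.28. Esam was under 1 FPKM in 3 of 4 normal-diet libraries, Fabp4 in N2 (0.79) and Emcn in N3 and N4 (0.88 and 0.76). Esam, Fabp4 and Emcn thus passed the filter on low values only through the high-fat group, which bears on the median. Pecam1, the other tested gene, stood at 0.39 (limma, adjusted p = 0.369). Sums were 4.11 to 6.92 and 6.31 to 10.5 FPKM for adipocyte markers, 4.33 to 8.08 and 7.99 to 10.2 FPKM for macrophage markers and 2.96 to 11.3 and 6.88 to 40.3 FPKM for stromal markers. Alone in the macrophage list, Adgre1 had a lower mean on the high-fat diet (0.38 against 1.43 FPKM), without overlap between the diets. Cd68 had means of 2.86 FPKM on the normal and 2.91 FPKM on the high-fat diet. No marker of these lists was at 0 in all 8 libraries, but Adipoq was listed at 0 in H2, H4, N2, N3 and N4. The 12 ILC2 markers were all present, at 6014 to 7300 and 4590 to 5346 FPKM in sum, and 3 of them fell, Gata3, Il2ra and Il5. Their median log2 difference was -0.27, with 9 of 12 below 0. Foxo1 and Tcf7 are also expressed by T cells and Cdh13 by endothelium. The part of other cells in the differences reported here was not tested.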

How the data were processed

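Per the labels' protocols, total RNA was turned into full-length cDNA (SMART-Seq HT) and cut into libraries by a transposase kit. HISAT2, Cufflinks and the mm10 build are named per the submitters' processing notes; their versions and the annotation were not given in the sources used here. Per the file headers the deposited values are FPKM. Values were below 0 in 14605 genes, none of them among the 10 reported. The value of 1 read also carries a factor (0.863 to 1.185) that recurs every 10 genes in identifier order, as found from whole-read steps in 100% of 24107 genes above 0 (relative tolerance 1e-07, 1 of 1000 with the next row's factor). It shifts these 10 genes by -0.08 to 0.07 on the log2 scale. Recovered reads came to 9005363 to 15752815 per library. Correlations between libraries of the same diet were 0.957 to 0.983 and between diets 0.952 to 0.974.

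Genes reaching 1 FPKM in 4 or more of the 8 libraries, and with no value below 0, were fitted with limma 3.58.1 in R 4.3.3 on log2(FPKM + 1), with diet as the only term, eBayes trend and robust, tested on simulated data. Differences are high-fat minus normal diet, and p-values are two-sided. Coordinates and exons are from GENCODE M21, and promoter windows, found for 9 of the 10 genes and not for Insr, from RefSeq. Named are the 10 genes and, from each pathway list, the called genes (up to 4) or else the 2 most abundant. The members and lists were chosen with earlier results of these data known. Alternatives were other scalings, pseudocounts, filters and variance models, libraries left out, a block on library number, limma-voom on recovered reads and, added after seeing the data, the factor divided out.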

Additional observations from a re-analysis of the deposited data

How the results depend on the processing

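Foxo1 kept its direction and its call in every setting run, and Irs2 kept its direction. The number of the 10 genes called (2) was 1 under quantile normalization, without a filter and with the replicate block, 1 to 2 when each library was left out in turn, and 4 on recovered reads. Over all tested genes the count (328) was 130 without a filter, which tests 24107 genes, 191 with the replicate block, 571 with the factor divided out, 1505 on recovered reads and 129 to 536 when each library was left out (200 without H1, 536 without H2, 129 without H3 or H4, 182 without N1 and 176 without N2). The split of calls was 226 higher and 204 lower under quantile normalization, and 242 and 216 without H2 and N2. Over the 6 pathway lists the count (4) was 7 under quantile normalization, 9 with a filter at 5 FPKM, 10 without H2 and N2, 11 with the factor divided out, 30 on recovered reads and 3 to 12 when each library was left out (12 without H2, 7 without N4). The cause was not tested.

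Differences that changed sign, none of them called, were Igf1r at 0.068 on recovered reads and -0.22 (without H2) to 0.042 (without H1) when each library was left out, Inpp4b at 0.11 under quantile normalization, 0.033 without H2 and N2, 0.060 on recovered reads and -0.15 (without H4) to 0.054 (without H2) when each was left out, Inpp5d at 0.0063, 0.045 and 0.11 and Ywhaz at 0.11, 0.0011 and 0.14 under quantile normalization, without H2 and N2 and on recovered reads. Same-numbered libraries of the diets did not deviate together (correlations -0.07, -0.25, -0.07 and 0.08), so the numbers were not read as pairs. With the replicate block Foxo1 had adjusted p = 0.0470 and Irs2 0.0600, and the ratio of Foxo1 to Foxo3 (-1.13) had an exact sign-flip p of 0.125, the smallest that 4 pairs allow. Leaving out each library kept that ratio between -1.24 and -1.01. Of the 10 genes Akt1 rests on the fewest reads, 98 to 273 per library.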

Other observations

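Further genes of the FOXO target list, chosen after their values were seen, had sizeable differences that did not pass. Tnfsf10 (log2 difference 0.70, limma adjusted p = 0.0583), Ccr7 (-0.51, 0.0854) and Gadd45b (0.63, 0.0863) were without overlap between the diets. Bcl2l11, which encodes the pro-apoptotic protein BIM, had a mean of 74.3 ± 12.4 FPKM in the normal-diet and 46.7 ± 11.6 FPKM in the high-fat libraries (SD, n = 4 each, log2 difference -0.68, limma adjusted p = 0.0670). Ctla4, an inhibitory receptor of regulatory and activated T cells, was at 11.4 ± 8.24 and 34.4 ± 14.998 FPKM (1.64, adjusted p = 0.116), and Foxp3, the factor that defines regulatory T cells, at 4.51 ± 4.72 and 9.96 ± 4.86 FPKM (1.22, adjusted p = 0.302). Among 3 tested adipocyte markers Aqp7, a glycerol channel, rose from 0.31 ± 0.13 to 1.74 ± 0.54 FPKM (1.05, limma adjusted p = 0.0277). Aqp7 passed the filter on low values only through the high-fat libraries. The other tested adipocyte markers, Lipe (0.27, limma adjusted p = 0.498) and Cidec (-0.02, 0.979), did not pass.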
